A study of Mus musculus with 6 samples.

Results

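Transcripts of 8 genes of the red cell membrane skeleton were followed in mouse fetal liver erythroblasts matured with or without added cholesterol. The genes were Sptb, Ank1, Epb41, Epb42, Slc4a1, Rhag, Add2 and Tmod1. They were picked by symbol, as spectrin, ankyrin, band 3 and the proteins linked to them, and are 8 of the 17463 genes in the deposited tables. All 8 passed the filter on low counts that left 11277 genes for testing.

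The cells came from the fetal liver of C57BL/6J mice. The labels give no age, and the study took its fetal liver cells at mid-gestation. Erythroblasts that did not yet carry TER119, a surface antigen that appears as red cell precursors mature, were matured in culture under erythropoietin (Epo), the hormone on which late red cell precursors depend. After 30 h in 40 µM cholesterol (3 samples) or in none (3 controls), TER119+ cells were sorted and their polyadenylated RNA was sequenced, so both groups share the Epo culture, the sort and the wild-type genotype. The labels call the controls untreated and the study calls them vehicle-treated. Samples are numbered 1 to 3 in each group. The study speaks of independent experiments for the data shown with this RNA-seq, but neither it nor the labels say what a sample number stands for (a mouse, a litter or a culture), so p-values measure only the spread between these samples, which may be technical.

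The red cell membrane is held in shape by a lattice of spectrin tetramers tied together at short actin filaments. Ankyrin fastens spectrin to the anion exchanger band 3 and to the Rh proteins that travel with it, and protein 4.2 strengthens that link. At the actin junctions protein 4.1 joins spectrin to actin, adducin caps one filament end and tropomodulin the other. Erythroblasts build the lattice during terminal maturation, before the nucleus is expelled, and inherited defects of several of these proteins cause spherocytosis, in which the cells lose membrane and round up. Cholesterol is a main lipid of the same membrane.

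Total counts lay between 19826797 and 20061702 per sample, and 3 counts, taken as the smallest detectable level, were worth about 0.15 CPM, a unit in which each count is divided by the size of its library. That floor covers counting error only. The adult globins took 13.8% to 17.9% of the counts in control and 12.5% to 16.2% with cholesterol. All 9 erythroid markers found in the tables were expressed, from Epor at 263 CPM in cholesterol 3 to the globins, which goes with the erythroblast label. Neutrophil lineage markers were present as well, at a summed 72.6, 270 and 728 CPM in control 1 to 3 and 44.0, 116 and 303 CPM in cholesterol 1 to 3. Both samples with number 3 held the most of them, and each control held more than the cholesterol sample of its number. The 8 membrane skeleton genes together took 1.70% to 2.04% of the counts. In bulk RNA a smaller share of one cell type and less RNA per cell cannot be told apart.

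The genes lie on 7 chromosomes (RefSeq, build GRCm38.p6, the build the labels name). Sptb spans chr12:76580488-76710547, Ank1 chr8:22974836-23150501, Epb41 chr4:131923413-132075346 and Epb42 chr2:121017891-121036877. Slc4a1 spans chr11:102348820-102365281, Rhag chr17:40811099-40844094, Add2 chr6:86028681-86124409 and Tmod1 chr4:46038940-46116032. RefSeq promoter windows of the same build were at hand for 6 of the 8 genes, all but Ank1 and Slc4a1. Those of Sptb, Rhag and Add2 are printed because Add2 departs from the replicate profile most of the other genes share, Rhag follows it and Sptb does so weakly in control, and because these stretches lie outside annotated transcripts. Each runs 5′ to 3′ on the strand of its gene and ends just before it, Sptb at chr12:76710548-76710797 (minus strand), Rhag at chr17:40810899-40811098 (plus) and Add2 at chr6:86028431-86028680 (plus). Capitals mark a GATA motif (the letters GATA with A or T before them and A or G after them) or a CACCC motif, on either strand, so that the reverse complement is shown where the match is on the other strand. GATA1 and KLF1, the master factors of the erythroid programme, bind sequences of these kinds.
Sptb: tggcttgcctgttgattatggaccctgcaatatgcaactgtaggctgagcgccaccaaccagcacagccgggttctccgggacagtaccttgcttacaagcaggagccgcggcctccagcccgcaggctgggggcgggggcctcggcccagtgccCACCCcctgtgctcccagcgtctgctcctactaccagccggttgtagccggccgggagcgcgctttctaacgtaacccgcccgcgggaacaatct
Rhag: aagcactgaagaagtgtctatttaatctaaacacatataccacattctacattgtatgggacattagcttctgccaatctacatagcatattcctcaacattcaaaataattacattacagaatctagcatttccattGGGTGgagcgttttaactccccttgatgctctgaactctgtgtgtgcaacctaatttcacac
Add2: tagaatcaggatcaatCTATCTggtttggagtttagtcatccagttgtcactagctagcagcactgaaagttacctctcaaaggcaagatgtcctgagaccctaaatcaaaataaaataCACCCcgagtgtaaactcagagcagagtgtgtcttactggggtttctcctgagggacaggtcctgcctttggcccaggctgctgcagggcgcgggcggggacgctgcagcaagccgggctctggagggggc
The Sptb stretch held a CACCC match from 95 to 91 bases before the table's transcription start and no GATA match. In the Rhag window a CACCC match lay from 112 to 108 bases before the start and a GATA match from 31 to 26, the latter inside the annotated gene and so not printed. The Add2 stretch held a GATA match from 234 to 229 and a CACCC match from 131 to 127 bases before the start. Over the 250 bases before the start, a GATA match was found for 4 of the 6 genes (Add2, Epb41, Epb42 and Rhag), against 19.8% of the 13550 genes with a window. A CACCC match was found for 4 of the 6 (Add2, Rhag, Sptb and Tmod1), against 57.2% of those genes. The letters TATAAA occurred for 1 of the 6, Epb42, against 8.36%, and CAGNTG, the core of an E-box, for 4 of the 6, against 40.4%. For a gene with several starts, such as Epb41, the window that RefSeq's table lists first was used (for Epb41 the one farthest upstream). The other Epb41 windows held no GATA match, so that gene's match depends on the window used. These are matches of letters and not measured binding, and the motifs do not overlap one another in the printed stretches. The printed stretches hold 65.2% (Sptb), 37% (Rhag) and 53.2% (Add2) G and C.

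Levels of different genes were compared per length, as fragments per kilobase scaled to sequencing depth (FPKM) in the authors' normalized table. All 8 genes were abundant. Slc4a1, which encodes band 3, the exchanger of chloride and bicarbonate and the main membrane anchor of the skeleton, stood far above the rest. Its level was 2198, 2371 and 2685 FPKM in control 1 to 3 and 2142, 2225 and 2644 FPKM in cholesterol 1 to 3. With a mean of 2378 FPKM over the 6 samples it ranked 15th among all 17463 genes. Rhag, the Rh-associated glycoprotein that carries the Rh complex to the membrane, came second of the 8 at 361 FPKM (rank 181). In 3 controls Rhag measured 322, 361 and 381 FPKM, and in 3 cholesterol samples 334, 369 and 397 FPKM. The ratio of Slc4a1 to Rhag was 6.59 ± 0.35 (SD over 6 samples) and that of Rhag to Ank1 1.59 ± 0.08, and at neither step did the ranges over the 6 samples overlap.

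The other 6 genes formed a close series. Mean levels were 226 FPKM for Ank1 (erythroid ankyrin), 218 for Epb41 (protein 4.1), 193 for Epb42 (protein 4.2), 159 for Sptb (β-spectrin), 150 for Add2 (β-adducin) and 136 for Tmod1 (tropomodulin). Over the 6 samples Ank1 ranged from 215 to 256 FPKM, Epb41 from 200 to 251 and Epb42 from 172 to 216. Sptb ranged from 151 to 173 FPKM, Add2 from 136 to 156 and Tmod1 from 128 to 150. Each of these neighbours in the order overlapped with the next in range, so the order of adjacent genes does not stand beyond the spread over samples. Genes further apart in the order were separated, since every value of Ank1 and Epb41 lay above every value of Sptb, Add2 and Tmod1, every value of Epb42 above those of Add2 and Tmod1, and every value of Sptb above those of Tmod1. Within a sample the order was steadier. The upper gene of each neighbouring pair was above the lower in 6 of 6 samples, except for Add2 over Tmod1, which held in 5 of 6 and turned in control 3. The steps were small, with mean within-sample ratios from 1.04 (Ank1 to Epb41) to 1.22 (Epb42 to Sptb).

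**Figure D1:**
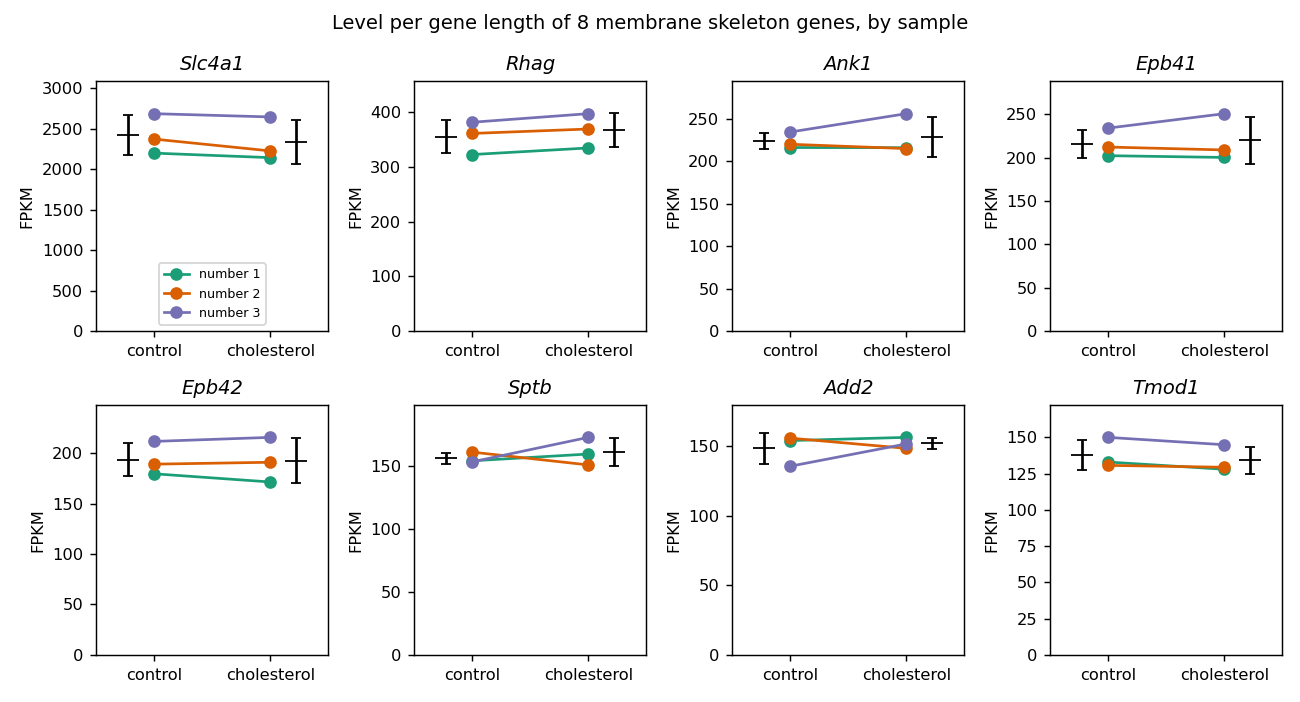
Level per gene length (FPKM, vertical axis from 0, a scale of its own in each panel) of the 8 genes in control and cholesterol samples. Points are single samples, lines join samples of the same number, and black marks at the sides give mean ± SD of 3 samples. For 7 genes the highest point belongs to a sample with number 3, and Add2 is lowest in control 3, at 136 FPKM.

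Some binding partners could be set beside the 8 on the same scale. Add1, the α-adducin partner of Add2, had a mean of 144 FPKM and a ratio to Add2 of 0.86 to 1.12 over the 6 samples. Slc4a1 exceeded Ank1, which binds it to spectrin, 9.91- to 11.4-fold, and it exceeded Epb42 11.6- to 12.7-fold.

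In most of the gene families the red cell form carried nearly all of the signal. For β-spectrin, Sptb stood at 159 FPKM and Sptbn1, the form of most other tissues, at 0.55 FPKM. For the ankyrins, Ank1 stood at 226 FPKM and Ank2 and Ank3 at 0.06 and 0.07 FPKM. The protein 4.1 relatives Epb41l1, Epb41l2 and Epb41l5 stood at 4.74, 6.96 and 1.43 FPKM beside 218 FPKM for Epb41, and Epb41l3 at 0.025 FPKM. Slc4a2 and Slc4a7, exchangers and cotransporters of bicarbonate in other cells, were at 3.33 and 2.61 FPKM. Rhbg was listed at 0 in all 6 samples, and Rhcg had a mean of 0.038 FPKM. Among the exceptions was Add1, which stood at about the level of Add2. The others were Rhd, the Rh antigen protein that forms a complex with Rhag, at 380 FPKM, and Tgm2, a transglutaminase of the family from which the enzymatically inactive protein 4.2 derives, at 88.6 FPKM against 193 for Epb42, with Tgm1 at 0.58 FPKM. Tmod3, the tropomodulin of many cell types, was detectable at 10.1 FPKM beside 136 for Tmod1. Add3, the γ-adducin of many other cells, was at 3.77 FPKM.

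Cholesterol was then compared with control, gene by gene, on CPM after TMM scaling. Log2 fold changes of the 8 genes lay between −0.08 and 0.02 (cholesterol minus control), and no gene passed the test. By edgeR's quasi-likelihood test, with Benjamini-Hochberg adjusted p-values from all 11277 genes, 0 of the 8 were called at an adjusted p under 0.05, where 0.00887% of all genes tested were called. At an unadjusted p under 0.05 the count was also 0 of 8, against 2.63% of all genes, and the DESeq2 Wald test called 0 of 8, where over all genes it called 2 higher and 25 lower. The groups overlapped for all 8, whereas they did not for 8% of all genes. The median log2 fold change of the 8 was −0.00, against 0.01 for all genes tested. In a second model the replicate number was a block, since same-numbered samples deviated together across the genome, clearly so for numbers 1 and 3 (r = 0.729 and 0.825). For number 2 the correlation of 0.348 was close to the 0.346 of control 1 with cholesterol 2. With the block 6.85% of all genes were called, and again 0 of the 8. At an unadjusted p under 0.05 it gave 0 of 8, against 19.6% of all genes. A 3 against 3 comparison cannot give a two-sided exact permutation p below 0.1, and 3 pairs cannot give one below 0.25, so no such test is given.

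What the data bound is the size of a change. Across the 8 genes the 95% intervals ran from 0.757-fold to 1.23-fold with condition alone. With the block they ran from 0.894-fold to 1.08-fold. The median standard error of a log2 fold change was 0.10 without the block and 0.04 with it. A miss of the threshold leaves changes inside these limits possible.

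Sptb encodes the β chain of the spectrin tetramer, the strut of the lattice. Its level was 1673, 1693 and 1703 CPM in control 1 to 3 and 1669, 1581 and 1874 CPM in cholesterol 1 to 3. The controls lay close together and inside the wider cholesterol range. Means were 1690 ± 15.4 and 1708 ± 150 CPM (SD, n = 3 each), a log2 fold change of 0.02 (95% interval −0.17 to 0.21, adjusted p = 0.9998). With the replicate block it was 0.01 (−0.08 to 0.11, adjusted p = 0.926), and the same-numbered differences were −0.00, −0.10 and 0.14.

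Ank1, Epb42, Slc4a1 and Rhag form the vertical link from spectrin to the bilayer. Ank1 measured 1640, 1660 and 1815 CPM in control 1 to 3 and 1634, 1587 and 1983 CPM in cholesterol 1 to 3, with the sample numbered 3 highest in each group. Its means of 1705 ± 95.9 and 1735 ± 216 CPM gave a log2 fold change of 0.02 (−0.23 to 0.27), and the blocked value was 0.02 (−0.07 to 0.11, adjusted p = 0.865). Epb42 measured 691, 705 and 829 CPM in control and 637, 706 and 828 CPM with cholesterol. Only the samples with number 1 differed by more than a few CPM, at a log2 difference of −0.12, while numbers 2 and 3 gave 0.00 and −0.00. Its log2 fold change was −0.04 (−0.33 to 0.26), and −0.04 with the block (−0.12 to 0.05, adjusted p = 0.677).

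Slc4a1 measured 10383, 10849 and 12987 CPM in control 1 to 3 and 9754, 10149 and 12485 CPM in cholesterol 1 to 3. The cholesterol sample was the lower in each of the 3 pairs, by similar amounts, with log2 differences of −0.09, −0.10 and −0.06 (mean −0.08, SD 0.02). The groups nonetheless overlapped, since cholesterol 3 exceeded controls 1 and 2. Means were 11406 ± 1388 and 10796 ± 1476 CPM, a log2 fold change of −0.08 (−0.40 to 0.24, adjusted p = 0.9998). With the block it was −0.08 (−0.16 to 0.00, adjusted p = 0.257), which did not pass. The adult globins also took a lower share of the counts in the cholesterol sample of each pair, and the part of this in the Slc4a1 values was not tested. Rhag measured 765, 823 and 923 CPM in control and 764, 840 and 934 CPM with cholesterol, values that match closely within each number. Its log2 fold change was 0.02 (−0.24 to 0.27), and 0.01 with the block (−0.07 to 0.10, adjusted p = 0.888).

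Epb41, Add2 and Tmod1 act where spectrin meets actin. Epb41 measured 1081, 1099 and 1281 CPM in control and 1035, 1080 and 1347 CPM with cholesterol. The means were both 1154 CPM, with SDs of 111 and 169, and the log2 fold change was −5.44e-05 (−0.30 to 0.30). With the block it was −0.01 (−0.09 to 0.08, adjusted p = 0.964). Add2 measured 846, 822 and 770 CPM in control 1 to 3 and 818, 782 and 826 CPM in cholesterol 1 to 3. Here control 1 was the highest and control 3 the lowest of the 6, and the cholesterol samples lay between them. The log2 fold change was −0.01 (−0.16 to 0.15), and −0.01 with the block (−0.10 to 0.08, adjusted p = 0.961). Tmod1 measured 380, 362 and 435 CPM in control and 352, 356 and 412 CPM with cholesterol, lower in each of the 3 pairs by log2 differences of −0.11, −0.02 and −0.08. Its log2 fold change was −0.07 (−0.31 to 0.17, adjusted p = 0.9998), and −0.07 with the block (−0.16 to 0.01, adjusted p = 0.365). Slc4a1 and Tmod1 were thus the 2 of 8 genes that were lower with cholesterol in all 3 pairs, where 20.1% of all genes tested were, and 0 of 8 were higher in all 3 pairs, where 19.9% of all genes were.

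**Figure D2:**
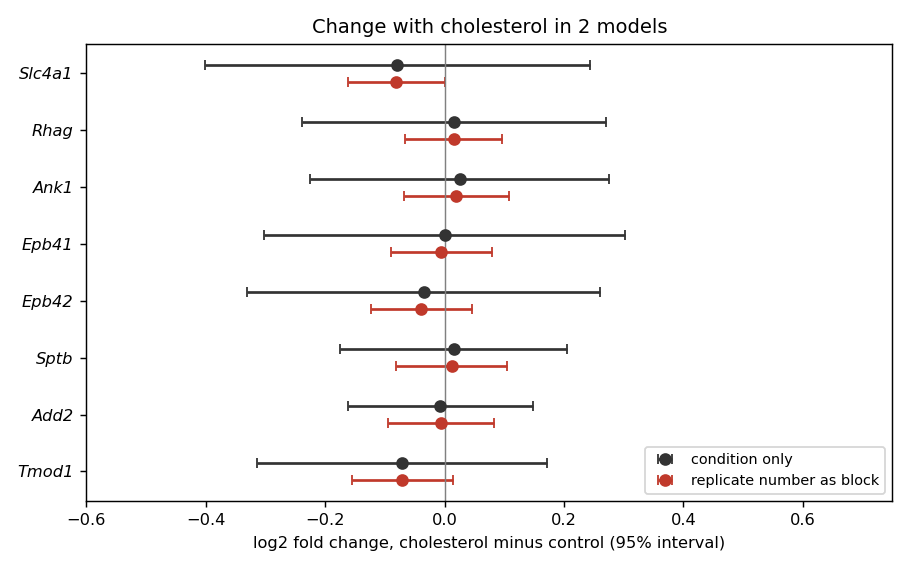
Log2 fold change of each of the 8 genes, cholesterol minus control (horizontal axis), with 95% intervals, from edgeR with condition alone (black) and with blocks of the same replicate number (red). All 16 intervals include 0, and the blocked ones are the narrower.

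Samples of different replicate number also differed. For 7 of the 8 the highest of the 6 samples was one with number 3, and for 5 of the 8 the lowest was one with number 1. The log2 difference of sample 3 minus sample 1 in the control group lay between −0.13 and 0.32 with a median of 0.22, and was above 0 for 7 of the 8 genes. In the cholesterol group it lay between 0.01 and 0.38 with a median of 0.29, above 0 for all 8. Over all genes tested the medians of the same differences were −0.01 and −0.00, with 48.9% and 49.8% above 0. Slc4a1 differed by 0.32 and 0.36 in control and cholesterol, Epb42 by 0.26 and 0.38, Epb41 by 0.25 and 0.38, and Rhag by 0.27 and 0.29. Sptb had the smallest difference of the 7 in control, at 0.03, and 0.17 with cholesterol. Add2 was the exception, at −0.13 in control and 0.01 with cholesterol.

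Profiles over the 6 samples were alike for most of the genes. The Pearson correlation of each gene's log2 CPM with the mean profile of the 8, which each gene helps to form, had a median of 0.94 and ran up to 0.996, but was −0.20 for Add2. Pairwise correlations among the 8 had a median of 0.82 and ranged from −0.51 to 0.97. These are descriptions over 6 samples that share 3 numbers, and they carry no test. The coefficient of variation over the 6 samples ran from 3.54% for Add2 to 11.9% for Slc4a1. Other readouts moved with the same numbers. The summed neutrophil markers were highest in both samples with number 3 (728 CPM in control 3 against 72.6 CPM in control 1). Macrophage markers summed to 18.5, 42.5 and 130 CPM in control 1 to 3 and 13.1, 19.3 and 57.9 CPM in cholesterol 1 to 3, and the adult globins took their largest share of each group in the sample with number 3. The part of any of these in the profiles of the membrane skeleton genes was not tested.

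**Figure D3:**
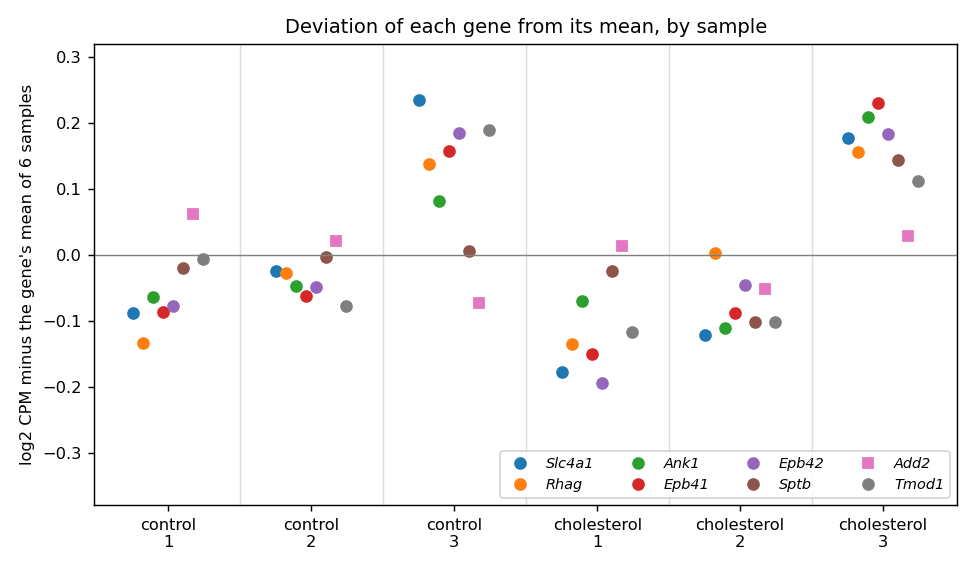
Deviation of each gene's log2 CPM from its own mean over 6 samples (vertical axis), for each sample (horizontal axis). In control 3 and cholesterol 3 the points lie above 0, except for Add2 (square) in control 3, and the median over the 8 genes of sample 3 minus sample 1 was 0.22 in control and 0.29 with cholesterol.

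Of 7244 genes with a mean of at least 10 CPM, those whose profile was most like the mean profile of the 8 were Slc30a1 (a zinc exporter, r = 0.999), Rbm38 (an RNA-binding protein, r = 0.997), Wdr44 (r = 0.997), Bcl2l1 (which encodes the survival protein BCL-xL, r = 0.995) and Aff1 (r = 0.994). Bcl2l1 measured 126, 134 and 210 CPM in control 1 to 3 and 111, 125 and 219 CPM in cholesterol 1 to 3. Such likeness was common, with 284 genes, or 3.92%, at a correlation over 0.95. The single most alike gene was Crtc1 for Sptb (r = 0.984), Top3b for Ank1 (0.997), Ccndbp1 for Epb41 (0.998) and Slc22a4 for Epb42 (0.997). It was Peli1 for Slc4a1 (0.998), Pcif1 for Rhag (0.999), Agpat1 for Add2 (0.993) and Actg1 for Tmod1 (0.999), each over 6 samples.

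Genes that work beside the 8 were taken from 3 lists, and 38 of their 43 genes had enough counts to be tested. The lists were 10 partners in the skeleton, 18 proteins carried in the membrane and 15 relatives from the same families, and Bcam, Epb41l3, Tmod2, Rhbg and Rhcg were not tested. With condition alone 0 of the 38 were called by edgeR or by DESeq2, and 3 had an unadjusted p under 0.05, all lower (Add3, Epb41l1 and Epb41l2), where 2.63% of all genes had one in either direction (216 of 11277 lower). With the replicate block 5 were called lower and 0 higher. That was 13.2% of the 38 in the lower direction, where 5.2% of all genes tested were called lower. Of the 5 called lower, 4 were among the 10 skeleton partners, 1 among the 11 relatives tested and 0 among the 17 membrane proteins tested. Lower in all 3 pairs were 7 of the 10 skeleton partners, 5 of the 11 relatives and 7 of the 17 membrane proteins. That was 19 of the 38, where 20.1% of all genes tested were lower in all 3 pairs. Higher in all 3 pairs were 4 of the 38, against 19.9% of all genes. Without the block, the skeleton partners had a median log2 fold change of −0.10, the membrane proteins −0.06 and the relatives −0.20. The count of 5 became 4, 2 and 8 when both samples with number 1, 2 or 3 were left out.

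Among the skeleton partners Add3 (γ-adducin) measured 18.2, 19.0 and 18.5 CPM in control and 13.8, 15.3 and 15.1 CPM with cholesterol. The groups did not overlap, and the log2 fold change was −0.33 ± 0.09 (standard error), or −0.33 ± 0.08 with the block (adjusted p = 0.0117). Tpm3, a tropomyosin that lies along the short actin filaments, measured 201, 179 and 174 CPM in control and 181, 162 and 141 CPM with cholesterol. It was lower in each pair but the groups overlapped, with a blocked log2 fold change of −0.20 ± 0.05 (adjusted p = 0.0113), and it was the only one of the 5 that passed without number 1, without number 2 and without number 3. Actb, the β-actin of these filaments, measured 1673, 1578 and 1849 CPM in control and 1504, 1507 and 1566 CPM with cholesterol. Its blocked log2 fold change was −0.15 ± 0.04 (adjusted p = 0.0286). Actg1, the γ-actin, measured 754, 696 and 990 CPM in control and 655, 665 and 896 CPM with cholesterol, with a blocked log2 fold change of −0.14 ± 0.04 (adjusted p = 0.0476). Of more partners, chosen after their values were seen, Add1 had a blocked log2 fold change of −0.08 (adjusted p = 0.270) and Dmtn, the actin-bundling protein dematin, one of −0.12 (adjusted p = 0.0649). Tpm1, another tropomyosin of the list, had a mean of 126 FPKM against 81.4 for Tpm3 and went the other way. Its blocked log2 fold change was 0.05 (adjusted p = 0.562). Of the 10 skeleton partners it was the only 1 that was higher in all 3 pairs.

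Epb41l1, a relative of protein 4.1 known from neurons, measured 28.5, 33.6 and 33.7 CPM in control and 23.3, 26.5 and 27.8 CPM with cholesterol, without overlap. Its log2 fold change was −0.31 ± 0.06 with the block (adjusted p = 0.00476). Epb41l2 measured 33.1, 30.9 and 33.1 CPM in control and 29.4, 26.0 and 28.8 CPM with cholesterol, and did not pass with the block (−0.21, adjusted p = 0.0515). Ank3 measured 0.61, 0.84 and 1.25 CPM in control and 0.35, 0.44 and 0.82 CPM with cholesterol, and its log2 fold change of −0.74 ± 0.47 (standard error) did not pass either. Of the membrane proteins, Gypc, the glycophorin that binds protein 4.1, measured 770, 785 and 850 CPM in control and 688, 708 and 830 CPM with cholesterol (blocked log2 fold change −0.12, adjusted p = 0.0999). It passed with the block when both samples with number 3 were left out (−0.16, adjusted p = 0.00634), but not without number 1 or number 2. Car2, the carbonic anhydrase that feeds bicarbonate to band 3, measured 3397, 3446 and 3442 CPM in control and 3097, 3323 and 3252 CPM with cholesterol, without overlap (−0.09, adjusted p = 0.196). Bsg, which encodes basigin, had a blocked log2 fold change of −0.09 (adjusted p = 0.292). Aqp1, the water channel of the red cell, was singled out after its values were seen. It measured 29.6, 91.4 and 155 CPM in control 1 to 3 and 35.0, 88.5 and 172 CPM in cholesterol 1 to 3, a far wider spread over the numbers than that of any of the 8, and its blocked log2 fold change of 0.10 (adjusted p = 0.311) did not pass. Groups did not overlap for 5 of the 38 (13.2%, against the 8% of all genes in either direction), and each of these was lower with cholesterol (Add3, Actb, Car2, Epb41l1 and Epb41l2).

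Markers of other cells moved in the same comparison. With the block 5.2% of all genes were called lower. Called lower with cholesterol were 9 of 10 neutrophil lineage markers and 5 of 8 macrophage markers. So were both of the 2 mast cell and basophil markers with enough counts, and 3 of 5 progenitor markers tested. In summed level neutrophil markers ranged from 72.6 to 728 CPM in control and from 44.0 to 303 CPM with cholesterol, and macrophage markers from 18.5 to 130 and from 13.1 to 57.9 CPM. Mast cell and basophil markers summed to 1.77 to 19.1 CPM in control and to 0.54 to 2.96 CPM with cholesterol, where Mcpt8 was at 0 in cholesterol 1. Progenitor markers summed to 59.9 to 80.9 CPM in control and to 51.2 to 59.7 CPM with cholesterol, so the ranges all but touched. Runx1 alone measured 38.3, 43.6 and 49.4 CPM in control and 36.3, 36.4 and 48.2 CPM with cholesterol, and its groups overlapped. Gata2, a progenitor factor, measured 6.22, 5.60 and 12.3 CPM against 2.37, 2.57 and 2.76 CPM. Of 5 megakaryocyte markers 1 was called lower (sums 61.0 to 75.2 and 58.2 to 65.4 CPM), and of 4 hepatocyte markers 0 passed (91.6 to 261 and 63.2 to 222 CPM). Among the erythroid markers 3 of 9 were called lower with the block, Tfrc, Alas2 and Hbb-bs. The RNA came from cells sorted as TER119+. The source of these other markers, and their part in the 5 partner genes called lower, were not tested. The 8 membrane skeleton genes summed to 17459, 18013 and 20744 CPM in control 1 to 3 and to 16662, 17081 and 20690 CPM in cholesterol 1 to 3.

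**Figure D4:**
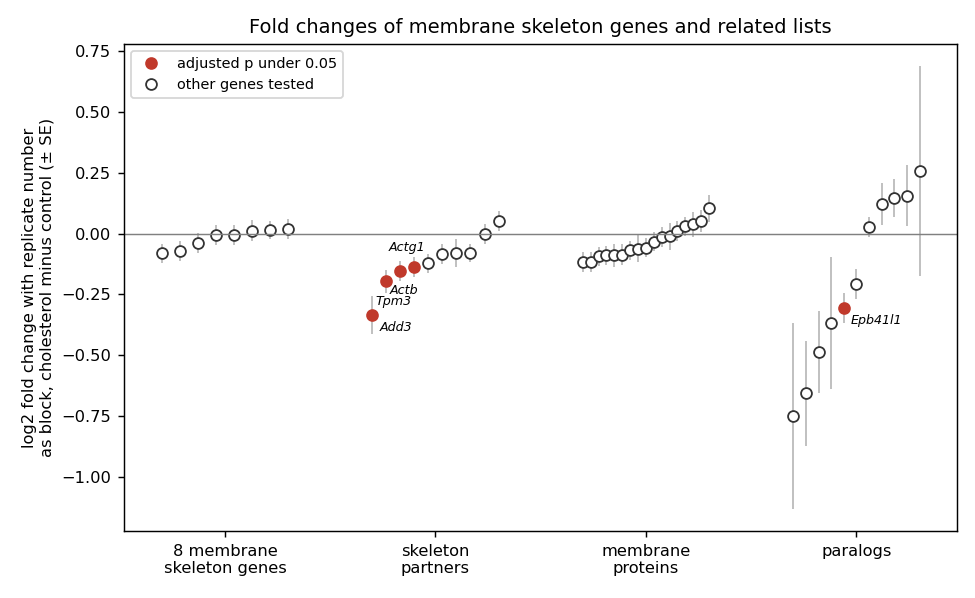
Log2 fold change from edgeR with the replicate number as a block, cholesterol minus control, ± standard error (vertical axis), for the 8 genes and 38 related genes, sorted within each list (horizontal axis). Filled red points have an adjusted p under 0.05 and are named, all 5 lie below 0, and none is among the 8 or the membrane proteins.

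The 2 tables also give a view of which transcripts were counted, because a gene's count, its FPKM and the sample total imply one effective length per sample. For Ank1 the implied length was 7475, 7672 and 7459 bases in control 1 to 3 and 7729, 7534 and 7638 bases in cholesterol 1 to 3, a range of 3.57% of the mean, and for Add2 the range was 2.32%. For the other 6 genes it was at most 0.877%. The groups overlapped for Ank1, and such ranges were not unusual, since 24.7% of the 4509 genes at 10 FPKM or more in all samples exceeded 2% and the median gene had 0.572%.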

How the data were processed

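Per the labels and the study's methods, polyadenylated RNA of TER119+ erythroblasts was read as single ends of 50 bases, in 3 control and 3 cholesterol samples. The authors deposited expected counts, estimated per gene and not normalized, of which 27.9% to 29.5% per sample are not whole. They also deposited normalized values of unnamed unit, taken here as FPKM, since value, count and total imply a near-constant length per gene. The submitters' processing notes name HISAT2 2.0.4, Bowtie2 2.2.5, RSEM 1.2.12, DESeq2 1.4.5 and build GRCm38.p6, without their roles. Estimated counts share reads between similar genes, so relatives at low levels are less certain.

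The membrane skeleton genes and all lists were chosen with earlier results of these data known. The tests had been planned for whole counts, so expected counts were rounded. The test was edgeR 4.0.16 under R 4.3.3 (filterByExpr, TMM, robust quasi-likelihood, Benjamini-Hochberg over 11277 genes), once on condition alone and once with same-numbered samples as blocks. Intervals come from the F statistic. The numbers come from the sample titles, and deviations from group means correlated at 0.729, 0.348 and 0.825 within same-numbered pairs, across genes, which are not independent. For other numbers they lay between −0.795 and 0.346, the highest, for control 1 with cholesterol 2, being close to the value of pair 2. No libraries were copies (chi-square per degree of freedom at least 8.20). Named partner genes are those called in either model plus the 3 smallest p of each list (Add1, Dmtn, Tpm1 and Aqp1 were added after their values were seen). Named look-alikes are the 5 most correlated with the mean profile and the first for each gene, with correlations on log2 CPM with a prior count of 2. Alternatives were DESeq2 1.42.0 (size factors and Wald test), no filter, 10 counts in every sample, limma 3.58.1 on log2(FPKM + 1), and samples or pairs left out. Scripts were tested on simulated counts. Symbols matched RefSeq for 17052 genes. The values of 1 gene of the partner list are not reported here.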

Additional observations from a re-analysis of the deposited data

How the results depend on the processing

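Across 15 alternatives 0 of the 8 membrane skeleton genes were called, with a smallest adjusted p of 0.132 (edgeR, limma and DESeq2 included). Of 120 log2 fold changes 25 had the opposite sign, and none of these was called. With each sample left out in turn, Sptb ranged from −0.054 to 0.065, Ank1 from −0.079 to 0.082, Epb41 from −0.12 to 0.083, Epb42 from −0.14 to 0.053, Slc4a1 from −0.19 to 0.025, Rhag from −0.059 to 0.092, Add2 from −0.043 to 0.026 and Tmod1 from −0.15 to 0.010, and their median from −0.10 (without cholesterol 3) to 0.040 (without cholesterol 1). Actg1 ranged from −0.30 to 0.028 (without control 3). Epb41 was 0.000876 with DESeq2, 0.00411 with no filter and 0.020 with limma, and Add2 0.038 with limma. With the replicate block and both samples of number 1 left out, Epb41 was 0.026, Epb42 0.00259 and Add2 0.017. Without number 2 Epb41 was 0.00484 and Add2 0.027, and without number 3 Sptb was −0.053 and Ank1 −0.037. The order of levels by CPM, which ignores length, changed the rank of 5 of the 8.

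Over all genes 1 was called higher and 0 lower with condition alone, 186 and 586 with the replicate block, and 2 and 25 with DESeq2. With the block the counts were 118 and 703 without number 1, 67 and 229 without number 2, and 210 and 516 without number 3. With single samples left out 1 gene was called higher in each case and 0 to 7 were called lower, with 7 without control 3. Of the 38 related genes, 0 were called lower with condition alone, 5 with the block, and 4, 2 and 8 with the block and number 1, 2 or 3 left out. The block changed no call among the 8. Each of the 8 had at least 352 CPM in every sample, far above the 0.15 CPM of 3 counts. The cause of these shifts was not tested.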
